A study of Homo sapiens with 6 samples.

Results

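The genes described here are 10 members of the keratin family, 5 of type II (KRT7, KRT8, KRT80, KRT81 and KRT86) and 5 of type I (KRT15, KRT17, KRT18, KRT19 and KRT34). They were picked by name, with earlier results of these data known. Matching by NCBI Gene ID found all 10 among the 16623 genes in the processed files, which held 29 keratin genes in all. To follow the transcriptional response to PCI-24781, a pan-histone deacetylase (HDAC) inhibitor, RNA-seq was done on MDA-MB-231 cells, an established triple-negative breast cancer line, in adherent culture. The cells received the compound at 100 nM or 200 nM or its solvent DMSO, and were taken at 24 h or 48 h, which gave 6 conditions of the same line. The libraries with DMSO alone (DMSO 24 h and DMSO 48 h) are called the 24 h control and the 48 h control. Each condition had 1 library, so no difference below has a replicate check, none was tested for significance, and the spread between cultures is unknown.

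Keratins are the intermediate filament proteins of epithelial cells, and a filament forms only when a type I chain pairs with a type II chain. KRT8 pairs with KRT18 in simple epithelia such as the luminal layer of the breast, where KRT7 and KRT19 are also found. KRT15 and KRT17 belong to basal layers and hair follicles, KRT17 also being induced in injured skin, KRT80 is a type II keratin of many epithelia, and KRT81, KRT86 and KRT34 are keratins of the hair shaft.

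The level of a gene is given as FPKM, the number of sequenced fragments scaled by transcript length and library size, which allows genes to be compared with each other. A change is the difference in log2(FPKM + 1) from the control of the same time, and it understates the change of genes with low FPKM. A change of 2-fold or more on this scale was called, provided that FPKM reached 1 in at least 1 of the libraries compared, and genes that met this floor are the tested genes. The files give no counts, and the steps between low values placed the depth at about 16300000 to 18600000 fragments per library. For a 2 kb transcript, 3 fragments would then give an FPKM of 0.081 to 0.092. The number of genes listed at 0 was 1708 in the 24 h control and 1614 at 100 nM for 48 h, against 1130 to 1391 in the other libraries. The 24 h control and 100 nM for 48 h also had the highest estimated depth, at about 18600000 fragments each. The lowest estimate was that of 200 nM for 48 h, at about 16300000, where 1178 genes were listed at 0.

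The cells had high vimentin and almost no hormone receptor RNA, as the label of a triple-negative, mesenchymal-like line implies. VIM, which encodes vimentin, had an FPKM of 1629 to 2053, whereas ESR1 and PGR were at 0.04 or less and the E-cadherin gene CDH1 was at 0.24 to 0.39. Summed over the 10 keratins, the FPKM was 353.4 in the 24 h control, 388.6 at 100 nM for 24 h, 452.7 at 200 nM for 24 h, 418.6 in the 48 h control, 390.3 at 100 nM for 48 h and 478.0 at 200 nM for 48 h. The keratins therefore stood at 18.4% to 29.3% of the vimentin level, and the share was highest in the 200 nM libraries of each time, at 26.7% and 29.3%. Part of this came from VIM, which was lower at 200 nM than in the control. It had 1696 against 1920 at 24 h and 1629 against 2030 at 48 h. RNA was taken from whole cultures, so a smaller number of keratin-positive cells and less keratin RNA per cell cannot be told apart.

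KRT81 and KRT86 share long stretches of sequence, which bears on how well their levels can be told apart, and these stretches are shown for this reason. In the GENCODE release 29 transcripts (GRCh38), 38.4% of the 50-base windows of KRT81 also occurred in KRT86 and 33.3% of those of KRT86 occurred in KRT81. The coding sequences were 90.1% identical over their alignment, against 52.9% for KRT81 and KRT80. From coding base 61, both genes held the same 605 bases, of which the first 120 are given. They lie at chr12:52291286-52291405 on the minus strand in KRT81 and at chr12:52301977-52302096 on the plus strand in KRT86.
KRT81 and KRT86, coding bases from 61: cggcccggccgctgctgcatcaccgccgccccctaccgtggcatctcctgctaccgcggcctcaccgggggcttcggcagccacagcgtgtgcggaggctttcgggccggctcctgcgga

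Past the shared run, from coding base 666, the next 60 bases differed at 2 positions, which are in capitals. A fragment that covered neither of these positions would match both genes over this stretch. The stretches lie at chr12:52288371-52288430 on the minus strand for KRT81 and at chr12:52304958-52305017 on the plus strand for KRT86, both GRCh38.
KRT81: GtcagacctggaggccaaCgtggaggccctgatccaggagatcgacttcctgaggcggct
KRT86: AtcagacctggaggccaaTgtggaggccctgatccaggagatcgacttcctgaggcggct

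The remaining keratins differed in how much of their transcript was their own. KRT8 shared 37.1% of its windows with other annotated genes, led by the pseudogene KRT8P3 at 21.5%, and KRT18 shared 31.8%, led by the pseudogene KRT18P11 at 10.0%. The shares were 17.4% for KRT17 and 11.4% for KRT34, and at most 1.8% for KRT7, KRT15, KRT19 and KRT80. In the coordinates of the files, which are hg19 by the submitters' processing notes, the KRT81 span (chr12:52679697-52685299) lies inside that of KRT86 (chr12:52668429-52702947) on the opposite strand. The spans of KRT8 (chr12:53290971-53343650, minus strand) and KRT18 (chr12:53342655-53346685, plus strand) overlap by 996 bases. The matched transcripts shared 0 exon bases in either pair. Strand-aware counting is not stated in the sources used here. Whether the overlap of the spans affects the values of KRT8, KRT18, KRT81 and KRT86 was not tested.

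KRT18, KRT7 and KRT8 were the most abundant keratins, and KRT18 and KRT7 varied least among the members. KRT18 had an FPKM of 98.80 in the control, 89.03 at 100 nM and 105.7 at 200 nM at 24 h, followed by 91.13, 91.31 and 110.6 in the same order at 48 h. KRT7 (chr12:52626954-52642709, plus strand) had 85.99, 99.60 and 96.89 at 24 h, and its 48 h values were 103.1, 82.79 and 113.9. The highest library exceeded the lowest by 1.24-fold for KRT18 and by 1.38-fold for KRT7, and no change of either gene came near the 2-fold threshold. By mean FPKM, these genes ranked 693 and 704 among the 16623 genes.

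KRT8, the type II partner of KRT18, was lower in both treated libraries at 24 h. Its FPKM was 86.51 in the 24 h control, 64.26 at 100 nM and 61.52 at 200 nM, then 84.39, 99.32 and 79.83 in the same order at 48 h. The log2 changes were -0.42 and -0.49 at 24 h, then 0.23 and -0.08 at 48 h, none of which was called. Among the tested genes, the change at 100 nM for 24 h was at percentile 3.6 and that at 200 nM for 24 h at percentile 11.0. KRT8 was the keratin with the lowest change of the 9 tested in both 24 h comparisons.

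The ratio of KRT8 to KRT18 followed from these values. It was 0.88 in the 24 h control, 0.72 at 100 nM for 24 h and 0.58 at 200 nM for 24 h, then 0.93, 1.09 and 0.72 at 48 h. The lowest ratio of each time was thus in the 200 nM library. Over all members, the type II sum divided by the type I sum was between 1.93 and 2.13 in the 6 libraries, so the balance of the types moved less than that of the KRT8 and KRT18 pair.

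**Figure D1:**
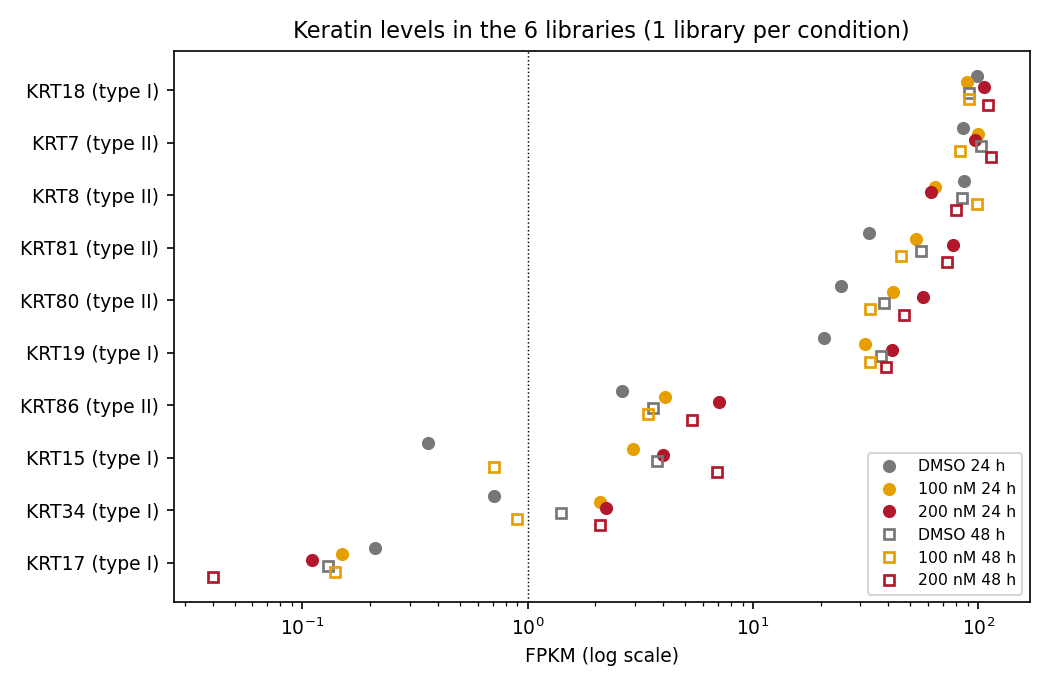
FPKM of the 10 keratins on a log axis, with genes on the vertical axis in order of mean FPKM. Each point is 1 library, circles being 24 h and squares 48 h, in grey for DMSO, orange for 100 nM and red for 200 nM, and the dotted line is an FPKM of 1. KRT18, KRT7 and KRT8 sit between 61.52 and 113.9 in every library, whereas KRT15 runs from 0.36 to 6.95.

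KRT19, a type I keratin of luminal cells (chr17:39679869-39684641, minus strand), was lowest in the 24 h control. Its FPKM was 20.62 there, 31.55 with 100 nM and 41.25 with 200 nM at 24 h, whereas the 48 h values of 37.17, 33.09 and 39.17 lay close together. The change was 0.59 at 100 nM for 24 h and 0.97 at 200 nM for 24 h, where the plain FPKM ratio was 2.0 and the ratio of FPKM + 1 was 1.95, just below the threshold. At 48 h the changes were -0.16 and 0.07.

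KRT80 and the hair keratin KRT81 were called higher at 200 nM for 24 h. KRT80 (chr12:52562780-52585784, minus strand) had an FPKM of 24.70 in the 24 h control, 41.86 at 100 nM and 56.80 at 200 nM, followed by 38.05, 33.20 and 47.01 at 48 h. KRT81 had 32.90, 53.08 and 77.16 at 24 h and 55.89, 45.41 and 73.06 at 48 h. For both genes the 24 h control was the lowest library and 200 nM for 24 h the highest, and 200 nM was above 100 nM at each time. The changes at 100 nM and 200 nM were 0.74 and 1.17 for KRT80 at 24 h, and -0.19 and 0.30 at 48 h. KRT81 changed by 0.67 and 1.21 at 24 h, then by -0.29 and 0.38 at 48 h.

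KRT86, the closely related neighbour of KRT81, was also called higher at 200 nM for 24 h. Its FPKM was 2.62 in the 24 h control, 4.07 at 100 nM and 7.04 at 200 nM, then 3.61, 3.41 and 5.37 at 48 h, with changes of 0.49, 1.15, -0.06 and 0.47. KRT81 was 10.96 to 15.48 times as abundant as KRT86 in every library. The shared sequence means that part of the KRT86 value may depend on how fragments were divided between the genes, and the size of that part was not tested. The coding sequences of KRT81 and KRT83, another hair keratin, were 89.3% identical. With the 3 closely related hair keratins KRT81, KRT83 and KRT86 added together, the change at 200 nM for 24 h was 1.21, as for KRT81 alone.

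KRT15, a keratin of basal layers (chr17:39669997-39675270, minus strand), had the widest range of the members that reached an FPKM of 1, at 19.31-fold. Its FPKM was 0.36 in the 24 h control, 2.94 at 100 nM for 24 h and 3.98 at 200 nM for 24 h. The 48 h values were 3.75 in the control, 0.71 with 100 nM and 6.95 with 200 nM. The 24 h control and 100 nM for 48 h were low and the other 4 libraries were higher. At a nominal transcript of 2 kb, the low values stood for about 13 and 26 fragments. Their exact 95% Poisson intervals, which cover counting error only, were 0.19 to 0.60 and 0.46 to 1.02, and the interval of the next library, 100 nM for 24 h, was 2.42 to 3.56.

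KRT15 was called higher or lower in 4 of the 5 comparisons, including the one between the controls. The change was 1.53 at 100 nM for 24 h, 1.87 at 200 nM for 24 h, -1.47 at 100 nM for 48 h and 0.74 at 200 nM for 48 h. The 48 h control was above the 24 h control by 1.80, which lies between the changes at the 2 doses at 24 h. The libraries low in KRT15 were also those with the most genes listed at 0, at 1708 and 1614. Whether this has a part in the KRT15 result was not tested.

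KRT34 and KRT17 were at the low end. The hair keratin KRT34 (chr17:39533921-39538636, minus strand) had an FPKM of 0.71 in the 24 h control, 2.10 at 100 nM and 2.22 at 200 nM, followed by 1.41, 0.90 and 2.10 at 48 h, again with the 24 h control and 100 nM for 48 h lowest. Its changes were 0.86, 0.91, -0.34 and 0.36, and were held below the threshold at 24 h by the pseudocount, since the plain FPKM ratios were 2.96 and 3.13. KRT17 (chr17:39775692-39780882, minus strand) was between 0.04 and 0.21 in all libraries, did not reach an FPKM of 1 and was not tested, which leaves 9 of the 10 members tested. Its values stood for about 1 to 8 fragments, too few to show a difference between conditions.

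Promoter windows of RefSeq (GRCh38.p14) were at hand for 2 of the 10 members, KRT8 and KRT34. Both strands were searched for the TATA box TATAAA, the CAAT box CCAAT, the GC box GGGCGG, the AP-1 site TGANTCA and the E-box CAGGTG, which occurred in 11.5%, 34.6%, 45.0%, 7.7% and 20.6% of 35116 promoters of the same length. The KRT34 window held TATAAA at position -31 from the start site and none of the others, and the KRT8 window held none of the 5. The KRT8 window belongs to 1 of several annotated start sites and is not shown. For KRT34, GENCODE release 29 places the start 97 bases farther upstream than RefSeq, so only the 30 bases around the match are given, at chr17:41382322-41382351 on the minus strand, with the match in capitals. A match of letters is a description and says nothing of binding.
KRT34, bases around the match: cccacaattaatggTATAAAaggactgcag

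**Figure D2:**
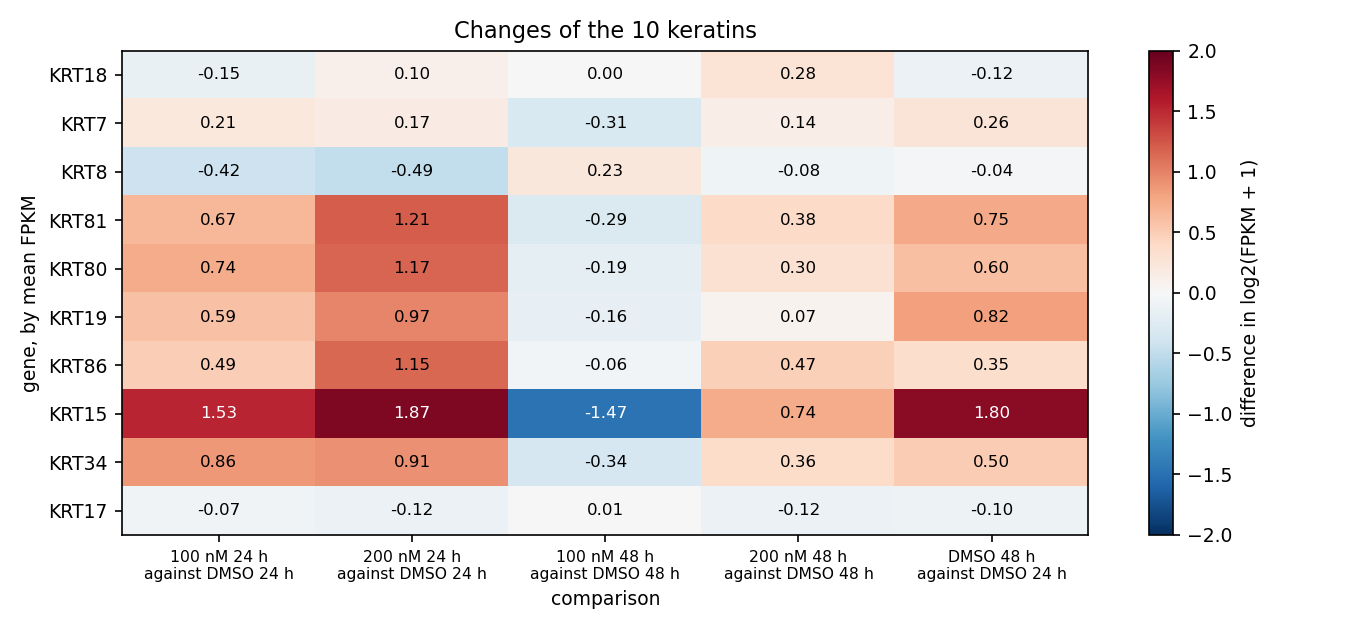
Differences in log2(FPKM + 1) of the 10 keratins (rows, by mean FPKM) in 5 comparisons (columns), with the value printed in each cell and red for higher in the first-named library. The column of 200 nM for 24 h holds the values of at least 1 for KRT15, KRT81, KRT80 and KRT86, and the column of 100 nM for 48 h holds -1.47 for KRT15.

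The members were chosen with earlier results of these data known, so the shares below describe them and test nothing. Set against all genes, the members were called as follows. At 100 nM for 24 h, 1 of the 9 tested members was called higher (KRT15) and 0 lower, where 1.35% of 11475 tested genes were called higher and 0.131% lower. At 200 nM for 24 h, 4 members were called higher (KRT15, KRT80, KRT81 and KRT86) and 0 lower, against 4.49% and 1.48% of 11660 genes. The median change of the 9 was 0.59 and 0.97 in these comparisons, and that of all tested genes was 0.01 in both. The keratins were not alike within them, as KRT8, KRT7 and KRT18 lay between -0.49 and 0.21.

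At 48 h few keratins moved by as much. At 100 nM for 48 h, 0 members were called higher and 1 lower (KRT15), against 0.0608% and 0.408% of 11514 genes. At 200 nM for 48 h, 0 were called in either direction, against 0.206% higher and 0.06% lower of 11665 genes. Of the 9 members, 7 were below the control at 100 nM for 48 h and 8 were above it at 200 nM for 48 h, counting changes of any size, with medians of -0.19 and 0.30 beside -0.01 and 0.01 for all tested genes. The largest change at 200 nM for 48 h was that of KRT15, at 0.74.

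The controls also differed from each other in several keratins. From the 24 h control to the 48 h control, KRT15 was called higher by 1.80 and 0 members were called lower, against 2.49% and 0.131% of 11490 genes. KRT19 was higher by 0.82, KRT81 by 0.75 and KRT80 by 0.60, whereas KRT8 and KRT18 differed by -0.04 and -0.12. The median of the 9 tested members was 0.50. This comparison shares the 24 h control library with both 24 h comparisons, so its error is theirs too. Time in culture cannot be told apart from a property of 1 of these libraries. Nor can it be told apart from an exchange of labels between the 48 h control and 100 nM for 48 h. The library of 100 nM for 48 h was also above the 24 h control in KRT19, with an FPKM of 33.09 against 20.62. It had 33.20 against 24.70 for KRT80, 45.41 against 32.90 for KRT81 and 0.71 against 0.36 for KRT15.

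The 24 h control was the lowest of the 6 libraries for 6 of the 10 keratins (KRT15, KRT19, KRT34, KRT80, KRT81 and KRT86). How many of all genes were lowest in the 24 h control was not counted, so this is not shown to be particular to keratins. The 24 h control also had the most genes listed at 0, at 1708 of 16623. The calls at 24 h depend on this library. With the 48 h control in its place, a comparison chosen after seeing the data, 0 members were called at 200 nM for 24 h and the median was 0.21, with KRT86 at 0.80, KRT80 at 0.57, KRT81 at 0.46 and KRT15 at 0.07. With the mean of the controls as the reference, 0 members were called at either dose for 24 h, and the median was 0.25 at 100 nM and 0.64 at 200 nM.

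**Figure D3:**
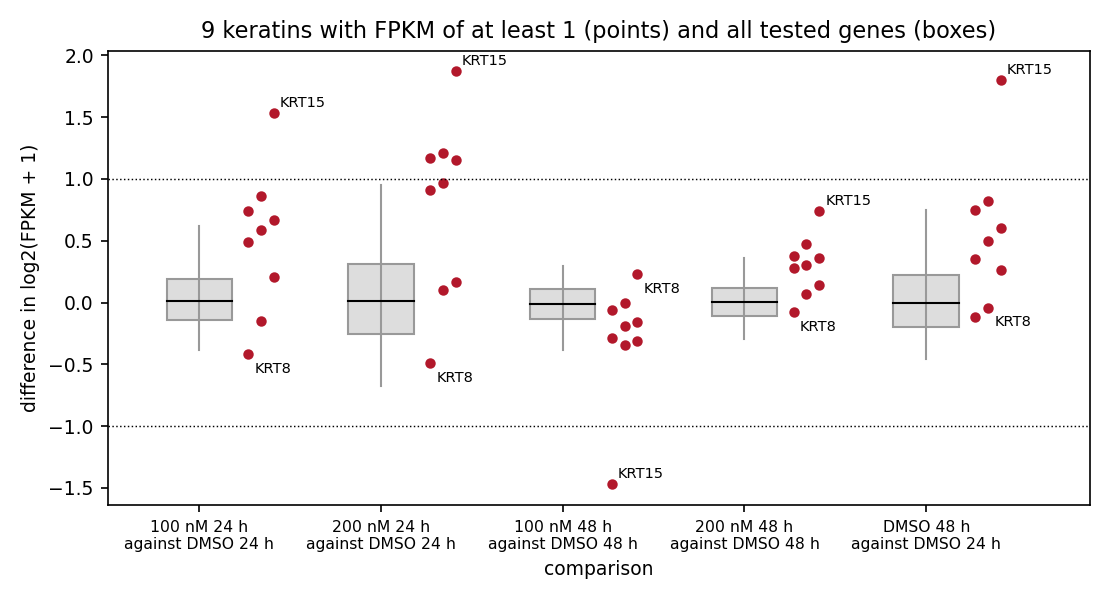
Differences in log2(FPKM + 1) of the 9 tested keratins (red points) beside all tested genes in each of 5 comparisons. Boxes run from the 25th to the 75th percentile of all tested genes, black lines are medians, whiskers reach the 5th and 95th percentiles, and dotted lines mark 2-fold. At 200 nM for 24 h the 95th percentile was 0.95, and KRT15, KRT81, KRT80, KRT86 and KRT19 lay above it.

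The makeup of the keratin pool shifted with the hair keratins and KRT80. KRT7, KRT8, KRT18 and KRT19 together made up 82.6% of the summed FPKM of the 10 keratins in the 24 h control, 73.2% at 100 nM for 24 h and 67.5% at 200 nM for 24 h, and 75.4%, 78.5% and 71.9% at 48 h. The share of KRT81, KRT86 and KRT34 was 10.3%, 15.2% and 19.1% at 24 h and 14.5%, 12.7% and 16.8% at 48 h. KRT80 alone made up 7.0%, 10.8% and 12.5% at 24 h and 9.1%, 8.5% and 9.8% at 48 h. In each time the 200 nM library had the lowest simple epithelial share and the highest hair keratin share. The simple epithelial sum itself was between 284.4 and 343.5 FPKM.

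**Figure D4:**
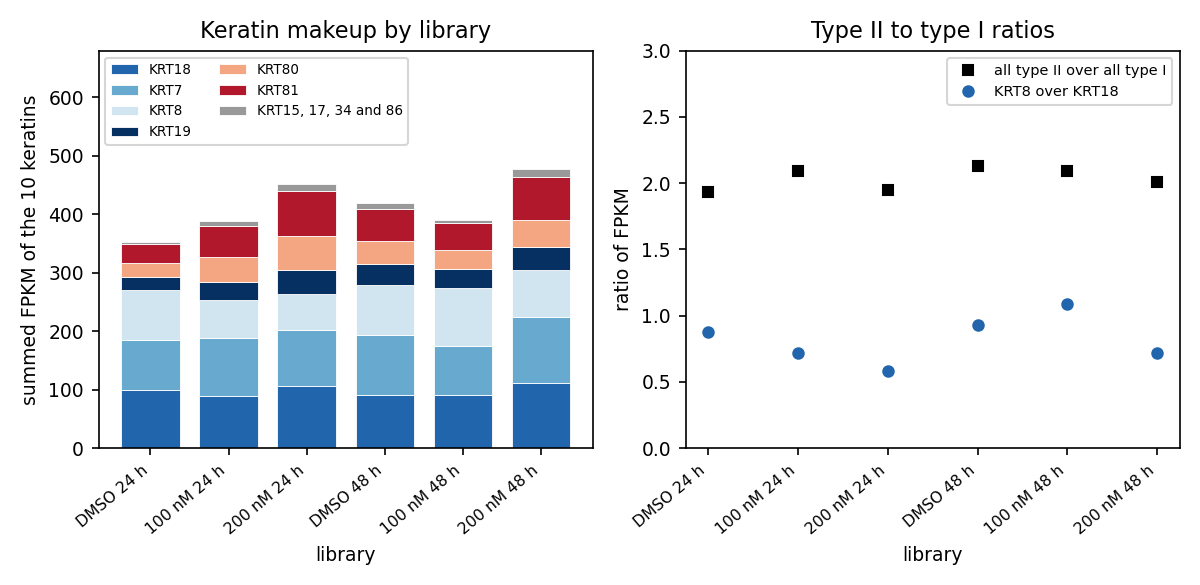
Left, summed FPKM of the 10 keratins in each library, stacked by gene. Right, the ratio of summed type II to summed type I FPKM (black squares) and of KRT8 to KRT18 (blue circles). The type ratio stays between 1.93 and 2.13, and the KRT8 to KRT18 ratio runs from 0.58 at 200 nM for 24 h to 1.09 at 100 nM for 48 h.

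The genes most like a keratin were sought by the distance between the 4 changes against the controls, among 7074 genes whose FPKM reached 10 in some library. KRT80 and KRT81 were 0.15 apart, and only 2 and 3 of the genes were nearer. The nearest non-keratin genes were TRIB1 and FAM171B for KRT80 and GLCE and TRIB1 for KRT81, at 0.12 to 0.14. KRT19 was nearest to CASP10 and CTSH, KRT7 to KATNAL1 and GNPTAB, and KRT18 to AOPEP and UBE4A. KRT8 was nearest to DOLK and GPN1, and 3979 genes were nearer to it than KRT18, at a distance of 0.77. The 4 changes share controls in pairs, so these distances are descriptive. The number of nearer genes also depends on how many genes changed by like amounts. At 200 nM for 24 h, KRT80 and KRT81 were at percentiles 97.1 and 97.4 of the tested genes, and KRT8 was at 11.0.

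Among the 19 other keratins in the files, only KRT10, a type I keratin of the suprabasal epidermis, reached an FPKM of 1. It was between 9.82 and 14.74, and was not called in any of the 5 comparisons. The 10 members made up 96.1% to 97.3% of the FPKM of all keratins. KRT5, a basal keratin that pairs with KRT14, was at 0.02 or less, and KRT14 was not found by symbol among the 16623 genes.

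Of the 13 other intermediate filament genes, NES and DES were called higher and LMNB1 lower at 200 nM for 24 h, among 8 tested. NES, which encodes nestin, had an FPKM of 1.58 in the control, 3.68 at 100 nM and 5.02 at 200 nM at 24 h, followed by 3.96, 3.20 and 4.36 at 48 h. DES, which encodes the muscle filament protein desmin, was at 0.27, 1.08 and 2.22 and then 1.85, 1.19 and 2.79, and was also called in the 48 h control against the 24 h control, by 1.17. LMNB1, which encodes lamin B1 of the nuclear lamina, was at 65.40, 55.56 and 32.01 at 24 h and at 52.24, 45.29 and 41.15 at 48 h. The list's median change was 0.05 at 200 nM for 24 h and between -0.20 and -0.03 in the other comparisons.

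Of 13 genes for keratin linkers and desmosomal plaque proteins, 1 was called, at both doses of 24 h. This was JUP, which encodes plakoglobin, with an FPKM of 3.02, 9.27 and 17.78 at 24 h, followed by 13.92, 12.87 and 18.40 at 48 h. Its changes were 1.35 and 2.22 at 24 h and 1.89 between the controls, with the 24 h control again lowest. The linker of highest level, PLEC (plectin), was between 50.10 and 79.83 and was not called. The list's median change was 0.10 and 0.35 at 24 h and -0.04 and 0.10 at 48 h.

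Among 22 transcription factors known to act on keratin genes, 21 were in the files and 0 of the 13 to 16 tested were called in a comparison with PCI-24781, with medians between -0.04 and 0.14. ELF3 and JUNB were called higher in the 48 h control than in the 24 h control, by 1.06 and 1.33. FOSL1, an AP-1 subunit and the most abundant of the list, had an FPKM of 548.5, 439.6 and 318.5 at 24 h, followed by 428.4, 527.5 and 281.3 at 48 h. It was therefore highest in the 24 h control and 100 nM for 48 h, the libraries in which KRT15 and KRT34 were lowest.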

How the data were processed

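RNA-seq of 6 MDA-MB-231 cultures was used. The deposited values are FPKM per gene, made by the authors and rounded to 2 decimals, after library construction by a sequencing company. The submitters' processing notes name Bowtie2, RSEM and hg19, without versions. Symbols came from the RefSeq gene table of GRCh38.p14, which held 16585 of the 16623 genes.

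Changes are differences in log2(FPKM + 1), called at 2-fold where FPKM reached 1 in at least 1 of the libraries compared, and computed over the whole table. With 1 library per condition, no p-value was calculated. Named genes were all 10 members and, from each list of related genes or cell markers, every gene past 2-fold in any of 5 comparisons and the most abundant one. For each member that reached an FPKM of 10, the 2 nearest non-keratin genes were also named. The members and lists were chosen with earlier results of these data known.

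Depth was inferred from FPKM steps of genes with 1 transcript of 500 to 1500 bases and is approximate. Transcripts were compared in 50-base windows. The calling code was run on simulated data with counting error only and with planted changes well past the threshold. That run checks the code and does not measure how reliable the keratin calls are. Python 3.11.15, numpy 2.4.6, pandas 2.3.3, scipy 1.17.1, Biopython 1.88 and matplotlib 3.10.9 were used. Alternatives were other pseudocounts, filters, scalings, references and a 1.5-fold threshold, and the sum of closely related keratins. A second alternative reference, the DMSO library of the other time, was added after the data were seen.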

Additional observations from a re-analysis of the deposited data

Results flagged for a closer look

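For 7 keratins, 100 nM PCI-24781 moved the level one way at 24 h and the other way at 48 h, each by at least 0.1 on the log2 scale. Each time has 1 library per condition, so the difference was not tested for any of them. How many of all genes turned in this way was not counted. Among all tested genes, the 75th percentile was 0.19 at 100 nM for 24 h, and the 25th was -0.13 at 100 nM for 48 h. Changes past 0.1 in these directions were therefore common, and the turn is not shown to be particular to keratins. KRT15 changed by 1.53 at 24 h and -1.47 at 48 h, a difference of 3.01. The difference was 1.20 for KRT34, 0.97 for KRT81, 0.93 for KRT80, 0.75 for KRT19 and 0.52 for KRT7, all higher at 24 h and lower at 48 h. KRT8 went the opposite way, from -0.42 to 0.23, a difference of -0.66. At 200 nM, 0 of the 10 keratins turned in this way. With the controls exchanged, KRT15 turned the other way, with -0.27 at 24 h and 0.33 at 48 h, as did KRT19, with -0.23 and 0.66. KRT81, with -0.07 and 0.45, did not reach 0.1 at 24 h and so no longer turned by this rule. KRT80, with 0.13 and 0.41, KRT34, with 0.36 and 0.15, and KRT7, with -0.05 at both times, no longer turned. KRT8 kept its turn, with -0.39 and 0.20. From these values, an effect of time, an exchange of labels between the 48 h control and 100 nM for 48 h, and a property of single libraries cannot be told apart.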

How the results depend on the processing

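The reference changed the results most. With the mean of the controls, the members called at 24 h numbered 0 at 100 nM and 0 at 200 nM, with medians of 0.25 and 0.64, and at 48 h they numbered 0 lower at 100 nM and 1 higher at 200 nM, with medians of 0.03 and 0.57. With the DMSO library of the other time, chosen after seeing the data, 0 members were called higher at either dose of 24 h, with medians of -0.05 and 0.21, 0 were lower at 100 nM for 48 h and 2 were higher at 200 nM for 48 h, with medians of 0.28 and 0.86. KRT15 then turned to -0.27 at 100 nM for 24 h and 0.33 at 100 nM for 48 h. Pseudocounts of 0.1 and 0.01 each gave 2 members higher at 100 nM for 24 h (KRT15 and KRT34), a median of 1.20 at 200 nM for 24 h and one of 0.62 between the controls. Rescaling to TPM also gave 2 and 1.20. Requiring an FPKM of 1 in both libraries left 0 members called at 100 nM for either time or between the controls. KRT15 and KRT34 were no longer tested in any of these comparisons. The median between the controls was then 0.35. At 1.5-fold, 5 members were higher at 100 nM for 24 h, 1 at 200 nM for 48 h and 4 between the controls, where 5.58%, 1.53% and 8.51% of all tested genes were. Median-of-ratios factors, no filter and the sum of closely related keratins left all counts of calls within 1.5 times and all medians within 0.1. Where no construction of the alternative shows it, the cause was not tested. No paired analysis was possible because there was a single library for each condition. Depth limits KRT17 and the low values of KRT15 and KRT34.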

Other observations

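Among 12 genes of the cornified envelope, the protein shell of differentiated keratinocytes, 4 were in the files and 2 reached an FPKM of 1. CNFN (cornifelin) had an FPKM of 1.39 in the 24 h control, 3.42 at 100 nM and 7.68 at 200 nM, and of 5.33, 3.76 and 5.77 at 48 h. It was called higher at 200 nM for 24 h, by 1.86, and in the 48 h control against the 24 h control, by 1.41. FLG, which encodes filaggrin, was between 0.92 and 2.36 and was not called.

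Of the 10 luminal epithelial markers, 5 or 6 were tested in each of the 5 comparisons and 0 were called, with list medians between -0.04 and 0.12. The most abundant, the tight junction gene CLDN4, had an FPKM of 19.27 to 35.77, and the summed level of the list ran from 33.90 in the 24 h control to 51.54 at 100 nM for 48 h. EPCAM, an epithelial adhesion gene named here after its values were seen, went the other way at 24 h. It had 4.70 in the 24 h control and 2.81 and 2.26 at 100 nM and 200 nM, changes of -0.58 and -0.81. At 48 h its values were 2.99 in the control, 3.56 at 100 nM and 2.35 at 200 nM, changes of 0.19 and -0.25. Between the controls EPCAM changed by -0.51, so its fall at 24 h also depends on the 24 h control. Of the basal or myoepithelial markers, 4 of 5 were in the files, with a summed FPKM of 2.02 to 6.12. CNN1, a smooth muscle calponin, was listed at 0 in the 24 h control and had 1.09 at 200 nM for 24 h, where it was called, and ACTA2, the most abundant, was between 1.61 and 3.80. Of 6 markers of mesenchymal-like lines, FN1 (fibronectin) was called higher in the 48 h control than in the 24 h control, by 1.37, with an FPKM of 104.4 against 39.73. Of the 3 leukocyte markers, 1 or 2 were tested in each comparison, and of the 2 endothelial markers 1 was tested in 4 comparisons and 0 at 100 nM for 24 h, and none of those tested was called. PTPRC was at 1.01 or less and CD3E at 0.04 or less, whereas CD68, a lysosomal glycoprotein gene, was between 69.59 and 126.2. PECAM1 was between 0.38 and 2.33, and CDH5 was at 0.03 or less.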
